A study of Mus musculus with 3 samples.

Results

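The 9 genes described here encode cell-surface receptors that bind the extracellular matrix: the integrin alpha subunits Itga3, Itga5, Itga6, Itga7 and Itgav, the integrin beta subunits Itgb1, Itgb3 and Itgb5, and dystroglycan (Dag1). They were chosen by name, and every probe set that the platform annotation assigns to 1 of them alone was read. This gave 31 of the 34945 probe sets annotated to a single gene, and 9 of 18193 genes. Signals came from mouse embryonic stem (ES) cells, pluripotent cells of the early embryo, modified to overexpress the endoderm transcription factor Gata6 in response to dex, read here as dexamethasone. A single array stands for day 0, labelled as the control, and likewise for day 1 and for day 2 of overexpression. Whether the day 0 cells carried the modification is not stated in the labels, nor are the clone, the strain, the dose of dex or its timing.

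An integrin is a pair of 1 alpha and 1 beta subunit that spans the plasma membrane, holds a matrix protein outside the cell and anchors actin through adaptor proteins inside it. The alpha subunit largely sets the ligand. Itga3, Itga6 and Itga7 pair with Itgb1 to bind laminins, Itga5 pairs with Itgb1 to bind fibronectin, and Itgav pairs with Itgb1, Itgb3 or Itgb5 to bind fibronectin, vitronectin and other proteins with an Arg-Gly-Asp motif. Dystroglycan is not an integrin: it binds laminin through sugar chains and links it to dystrophin or utrophin. In the early mouse embryo, laminin receptors act where primitive endoderm lays down its basement membrane against the epiblast.

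Values are MAS5 signals, brightness per probe set on a linear scale, scaled so that the 3 arrays have the same trimmed mean. Signals under 54.0, a floor at the 40th percentile, were raised to it. Higher and lower, as counts, mean a difference of 2-fold or more between 2 arrays with the brighter one over the floor. With no replicates there is no test and no spread between cultures. The error quoted as a probe-set SD is the spread of log2 ratios between probe sets of 1 gene: 0.49 for signals under 200, 0.36 from 200 to 1000 and 0.22 from 1000 to 5000. It does not reach beyond the 2 arrays compared.

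The arrays were alike in overall brightness, with median signals of 84.2, 81.8 and 86.4 on days 0, 1 and 2. The overexpressed gene Gata6 read 109.6, 5574 and 6070 on the 3 days by its brightest probe set, and 4.90, 50.4 and 102.6 by its dimmest. Of 10 pluripotent cell markers, 9 were lower on day 2 than on day 0 (Fgf4 14.6-fold, Tdgf1 10.3-fold and Klf2 9.87-fold). Dppa5a, named after its values were seen, read 40759, 37051 and 36733 on days 0, 1 and 2. Of 8 primitive endoderm markers, 8 were higher, and these include the overexpressed gene Gata6 itself. Over all genes, 10.1% were lower and 11.0% higher. By the brightest probe sets, ratios were 340.2-fold for Dab2, 223.5-fold or more for Sox17 and 147.8-fold or more for Pdgfra. Log2 ratios over all probe sets ran from 5.63 to 8.41 for Dab2, 4.23 to 7.21 for Pdgfra and -4.34 to -2.33 for Fgf4. In RNA from whole cultures, fewer cells of a type and less RNA per cell cannot be told apart, and the part of these markers in the receptor results was not tested. Markers of other cells were mostly dim. Of 11 fibroblast markers, 3, 4 and 3 lay above the floor on days 0, 1 and 2, with summed signals of 857, 504 and 642. Col1a1, Col3a1 and Postn were under the floor on each array, while Col1a2 read 84.8, 67.5 and 82.6. These genes are named after their values were seen. Of 7 blood and platelet markers 4, 4 and 2 were above the floor (sums 689, 465 and 632), the brightest being Itga2b (331, 176 and 408). Of 6 muscle markers 4, 4 and 4 were above it (sums 541, 433 and 688). Des, named after its values were seen, read 255, 144 and 209. Some genes on these lists differed between days: Thy1 was at least 7.80-fold lower and Twist1 at least 2.08-fold higher on day 2 than on day 0. Acta1 read 57.6, 72.9 and 236 on days 0, 1 and 2. Acta2 read 172, 116 and 187 on days 0, 1 and 2, Cd34 61.5, 85.6 and 47.1, Pf4 128, 68.2 and 25.6, Myod1 44.1, 83.9 and 102.7, and Myh3 88.1, 41.6 and 46.0.

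Of the 31 receptor probe sets, 25 lay above the floor on at least 1 array and 6 on none. Both Itgb3 probe sets, 3 of the 6 for Itgb1 and 1 of the 5 for Itgav were the ones never above it. The other 8 genes passed the floor on at least 1 array, Itga7 staying close to it, and their differences did not all run one way. On day 2, Itga6 was 2.24-fold lower and Itgav 2.09-fold higher than on day 0, while the other 6 stayed within 2-fold by the brightest probe set, the one taken to stand for each gene.

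**Figure D1:**
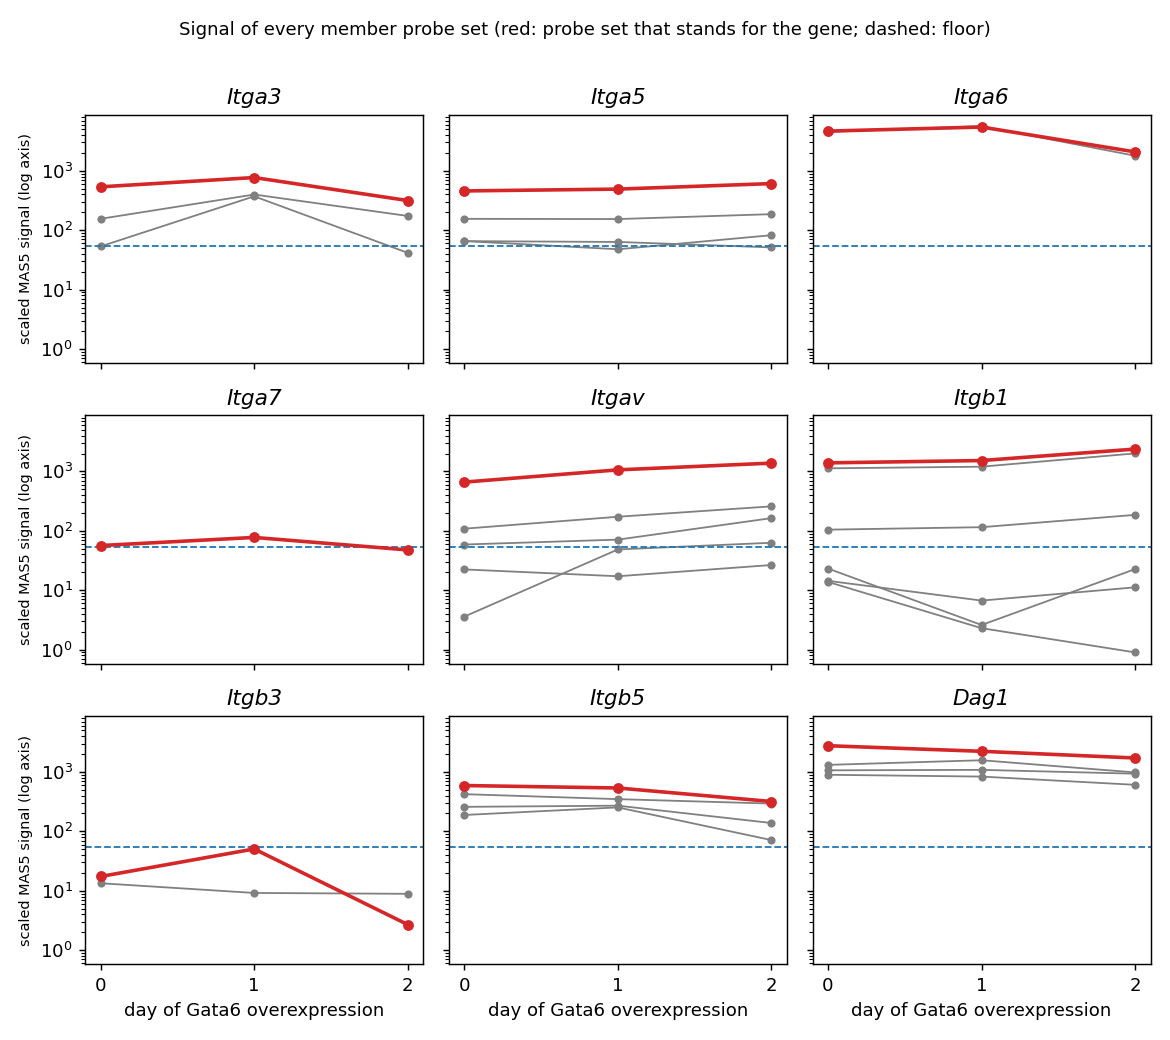
Scaled MAS5 signal (log axis) of all 31 receptor probe sets on day 0, day 1 and day 2, 1 panel a gene. The red line is the brightest probe set, grey lines are the others and the dashed line is the floor of 54.0; Itga6 dips and Itgav climbs by day 2, Itga3 peaks on day 1 in all 3 probe sets and Itgb3 stays under the floor.

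The laminin-binding alpha subunits are taken first. Itga6, whose pairing with Itgb1 is a main laminin receptor of ES cells, read 4663, 5459 and 2082 on days 0, 1 and 2 by its brightest probe set, and 4523, 5657 and 1793 by the other. Both probe sets were a little brighter on day 1 and clearly dimmer on day 2. The day 2 signal was 2.62-fold and 3.16-fold lower than on day 1, and 2.24-fold and 2.52-fold lower than on day 0. The mean log2 ratio of day 2 against day 1 was -1.52 ± 0.19 (SD, n = 2 probe sets), several times the probe-set SD of 0.22 at this brightness. The difference between day 1 and day 0, a mean log2 ratio of 0.28, was close to that SD. Among all 13468 genes compared between day 2 and day 1, 1.38% had a log2 ratio as low as that of Itga6.

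Itga3, which with Itgb1 binds laminins of epithelial basement membranes, was brightest on day 1 in each of its 3 probe sets. The brightest read 538, 771 and 316 on days 0, 1 and 2, and the next read 156, 399.6 and 174. The dimmest read 373 on day 1 and was under the floor on day 0 and day 2 (53.5 and 41.7). All 3 were at least 2-fold lower on day 2 than on day 1, by 2.44-fold, 2.30-fold and at least 6.90-fold. Against day 0, day 1 was 1.43-fold, 2.56-fold and at least 6.90-fold higher, so the size of that step depended on the probe set: 0.52 on the log2 scale by the brightest one and 1.55 ± 1.15 over the 3 (SD). Day 2 against day 0 had no settled sign, with log2 ratios of -0.77 and 0.16 for the 2 probe sets above the floor. The _s_at suffix of the dimmest, and the _x_at suffix of some probe sets below, mark probe sets that can match transcripts of more than 1 gene.

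The region around the start of Itga3 is shown because a promoter table from RefSeq (build GRCm38.p6) covers 250 bases before to 50 after each gene's start. The table holds 6 of the 9 receptor genes, in 8 entries. Capitals mark GC boxes, the letters GGGCGG or their reverse complement, a motif that Sp1-type factors bind.
Itga3 promoter, chr11:95076665-95076964, minus strand: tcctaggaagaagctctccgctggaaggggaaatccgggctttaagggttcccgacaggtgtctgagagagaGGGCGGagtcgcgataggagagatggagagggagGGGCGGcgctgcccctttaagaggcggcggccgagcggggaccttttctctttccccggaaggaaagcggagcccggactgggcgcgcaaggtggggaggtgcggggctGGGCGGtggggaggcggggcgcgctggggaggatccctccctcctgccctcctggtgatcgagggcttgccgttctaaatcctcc
It holds 3 GC boxes and is 66.7% G and C, against a median of 53.0% over 32544 different promoters of the table. A GATA motif, the letters GATA with A or T before them and A or G after them, on either strand, was found in 0 of the 8 receptor entries, and 29.6% of all promoters in the table hold one. No overlap between the motifs arises, since no entry holds a GATA motif. The lack of a match says only that these letters are not in these windows. A GC box was found in 8 of 8, and in 35.9% of all promoters. The Dag1 windows overlap each other, so the 8 are not separate observations. The shares over all promoters were not matched for G and C content. A second Itga3 entry in the table starts further into the gene and is not shown.

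Itga7, a laminin receptor known best from muscle, was near the floor. Its only probe set read 56.5, 77.4 and 47.7 on days 0, 1 and 2, and only the day 1 value passed 70.2, the 95th percentile of 80 probe sets for odorant and pheromone receptors (olfactory and vomeronasal genes), taken as silent in ES cells. No difference of Itga7 could be read at this brightness.

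Dystroglycan (Dag1), the laminin receptor outside the integrin family, was dimmer on day 2 in each of its 4 probe sets. The brightest read 2763, 2226 and 1717 on days 0, 1 and 2. The others read 1315, 1574 and 981, 1065, 1084 and 934, and 896, 835 and 607. The first and the last of these carry the _x_at suffix. Day 2 lay below both earlier days in all 4 probe sets, whereas day 1 lay below day 0 in 2 and above it in 2. The log2 ratio of day 2 against day 0 averaged -0.46 ± 0.21 (SD, n = 4 probe sets) and ranged from -0.69 to -0.19, against a probe-set SD of 0.22. None of the 4 differed by 2-fold.

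Of the 2 alpha subunits described here that bind Arg-Gly-Asp proteins, Itgav was past 2-fold on day 2 against day 0 and Itga5 was not. The brightest probe set read 660, 1061 and 1378 on days 0, 1 and 2, and the next read 109, 173 and 258. Another read 58.8, 71.1 and 163, the day 0 value lying under the odorant receptor background of 70.2. In each of these 3 the signal was higher on day 1 than on day 0 and higher again on day 2. Day 2 was 2.09-fold and 2.38-fold higher than day 0 in the brighter 2, and no fold is given for the one whose day 0 signal lay under that background. Of the remaining 2 probe sets, 1 was above the floor on day 2 only (3.60, 48.6 and 63.0), and the other was under it throughout. Of all 13865 genes compared between day 2 and day 0, 10.1% had a log2 ratio as high as the 1.06 of Itgav. Its promoter entry, shown with GC boxes in capitals, is 67.3% G and C.
Itgav promoter, chr2:83724147-83724446, plus strand: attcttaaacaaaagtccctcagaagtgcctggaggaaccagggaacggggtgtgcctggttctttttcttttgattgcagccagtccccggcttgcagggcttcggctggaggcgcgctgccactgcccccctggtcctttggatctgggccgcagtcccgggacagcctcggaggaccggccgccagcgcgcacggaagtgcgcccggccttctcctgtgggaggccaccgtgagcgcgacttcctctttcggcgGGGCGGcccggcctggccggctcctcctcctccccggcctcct

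Itga5, the fibronectin receptor subunit, differed little. Its brightest probe set, an _s_at one, read 459, 493 and 610 on days 0, 1 and 2, and the next 156, 154 and 187. Both were brightest on day 2, by 1.33-fold and 1.20-fold over day 0, which is about 1 probe-set SD or less. The 2 dimmest probe sets, from 47.9 to 82.6, had log2 ratios of opposite sign (0.33 and -0.28). The sign of the small difference between day 1 and day 0 (0.10) also turned with the probe sets used, to -0.06 as a mean over all 4.

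Itgb1, the beta subunit shared by the laminin and fibronectin receptors, was higher on day 2 by nearly the same factor in every readable probe set. The brightest read 1392, 1523 and 2375 on days 0, 1 and 2. The next read 1126, 1200.2 and 2008, and the dimmest of the 3, an _x_at probe set, read 105, 115 and 186. Day 0 and day 1 were nearly level in all 3, with a mean log2 ratio of 0.12 ± 0.02. Day 2 stood apart, 1.71-fold, 1.78-fold and 1.77-fold above day 0, or 0.81 ± 0.03 on the log2 scale (SD, n = 3 probe sets). That is under the 2-fold threshold but over 3 times the probe-set SD of 0.22. The other 3 probe sets read at most 23.2 and gave no value. The Itgb1 promoter entry holds 1 GC box and is 67.3% G and C.
Itgb1 promoter, chr8:128685404-128685703, plus strand: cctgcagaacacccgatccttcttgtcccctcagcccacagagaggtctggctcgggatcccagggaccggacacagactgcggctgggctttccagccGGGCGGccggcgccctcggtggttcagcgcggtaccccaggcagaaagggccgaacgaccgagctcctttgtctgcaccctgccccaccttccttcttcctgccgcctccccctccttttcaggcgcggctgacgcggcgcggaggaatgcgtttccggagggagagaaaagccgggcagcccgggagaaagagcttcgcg

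Itgb5, a partner of Itgav in vitronectin binding, was dimmer on day 2 in all 4 of its probe sets. The brightest read 591, 537 and 318 on days 0, 1 and 2, and the dimmest read 189, 253 and 71.4. The other 2, each with the _x_at suffix, read 423, 349 and 293, and 259, 271 and 138. Day 2 was the lowest of the 3 days each time, while day 1 lay above day 0 in 2 probe sets and below it in 2. Against day 0, day 2 was 1.86-fold lower by the brightest probe set and 2.64-fold lower by the dimmest. Over the 4, the log2 ratio averaged -0.93 ± 0.36 (SD). The Itgb5 promoter entry holds 3 GC boxes and is 65.7% G and C.
Itgb5 promoter, chr16:33829415-33829714, plus strand: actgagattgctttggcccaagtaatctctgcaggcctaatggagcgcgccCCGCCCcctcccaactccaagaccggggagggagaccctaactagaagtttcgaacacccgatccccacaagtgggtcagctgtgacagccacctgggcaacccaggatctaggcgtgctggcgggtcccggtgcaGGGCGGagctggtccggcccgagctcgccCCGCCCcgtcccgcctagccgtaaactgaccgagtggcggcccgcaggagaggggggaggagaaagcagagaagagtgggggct

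Itgb3, the beta subunit of the vitronectin receptor of platelets and osteoclasts, was under the floor on each array. Its probe sets read 17.4, 50.6 and 2.70, and 13.4, 9.20 and 8.90, on days 0, 1 and 2. These values carry no order, and no fold is given.

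**Figure D2:**
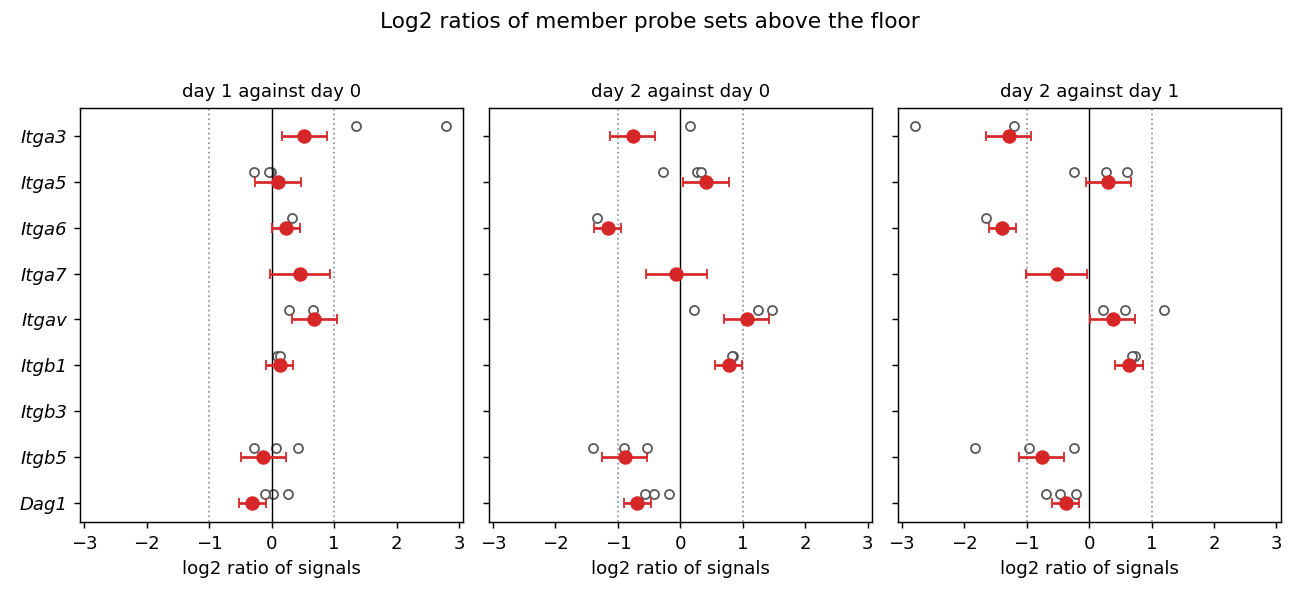
Log2 ratios of receptor probe sets above the floor for day 1 against day 0, day 2 against day 0 and day 2 against day 1. Filled red points are the brightest probe set of each gene with the probe-set SD at its brightness as the bar, open points are the other probe sets and dotted lines mark 2-fold; on day 2 Itgav and Itgb1 lie right of 0 and Itga6, Itgb5 and Dag1 left of it.

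Counts over the receptors were small and are set beside those over all genes. The 8 receptor genes counted include Itga7, whose differences could not be read. In day 1 against day 0, 0 of 8 were at least 2-fold higher and 0 lower, where 6.00% of all 13602 genes compared were higher and 6.58% lower. By probe set, 2 of 24 were higher, both of Itga3, and 0 lower (5.94% and 5.90% of all probe sets). The receptors' median log2 ratio was 0.18, against -0.04 for all genes. In day 2 against day 0, 1 of 8 genes was higher (Itgav; 11.0% of all genes) and 1 lower (Itga6; 10.1%), shares near those of all genes. By probe set 3 of 24 were higher, all of Itgav, and 3 lower, 2 of Itga6 and 1 of Itgb5 (10.8% and 9.12%). Among the Itgav ones, 1 had a day 0 signal of 58.8, under the odorant receptor background of 70.2. The median over genes was -0.38, against -0.05 for all genes. That median lies between the ratio of Dag1 (-0.69) and the one of Itga7 (-0.07), which was near the floor.

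By the brightest probe sets, more receptors passed 2-fold in day 2 against day 1 than in day 1 against day 0. Itgav had a wider log2 ratio on the first step (0.68) than on the second (0.38). In day 2 against day 1, 2 of 8 genes were lower (Itga6 and Itga3), against 3.67% of all genes, and 0 were higher, against 5.61%. By probe set 6 of 25 were lower, 3 of Itga3, 2 of Itga6 and 1 of Itgb5, and 1 of Itgav was higher. Over all probe sets 3.49% were lower and 5.31% higher. Probe sets of 1 gene share their target and are not separate observations. The median log2 ratio of the receptors was -0.45, against -0.01 for all genes. It lies between the ratio of Dag1 (-0.37) and the one of Itga7 (-0.52), which was near the floor. Since day 1 and day 2 are both set against the single day 0 array, and day 2 against the single day 1 array, the 3 comparisons are not independent of each other.

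**Figure D3:**
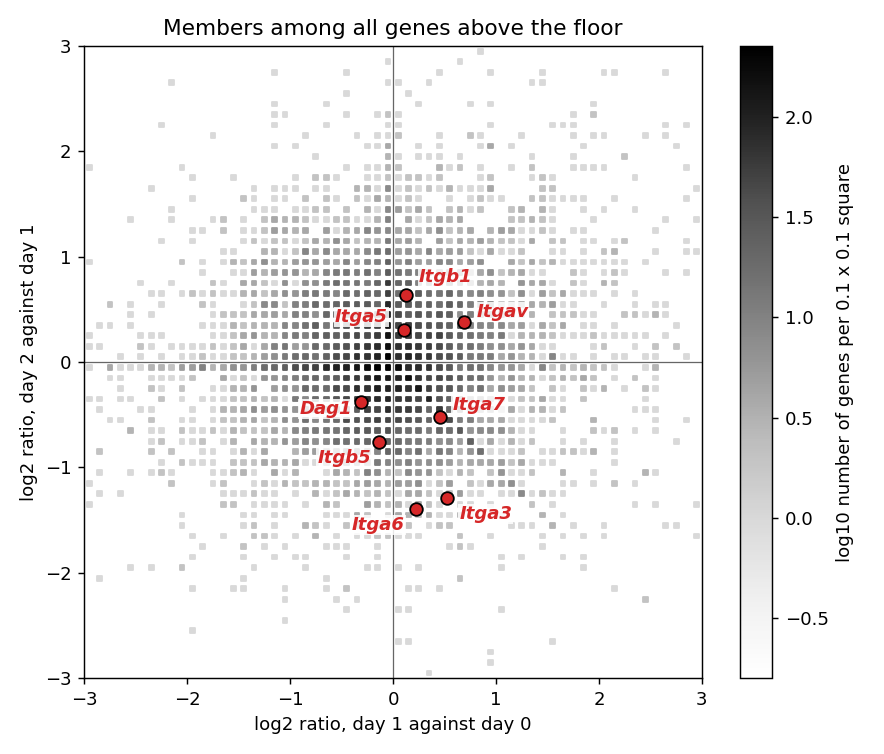
Log2 ratio of day 1 against day 0 (x axis) and of day 2 against day 1 (y axis) for the 8 receptor genes above the floor on at least 1 array (red points), over the number of genes in each small square (grey, log10 scale). Itga3 and Itga6 lie lowest of the 8, and Itgav, Itgb1 and Itga5 lie above the horizontal line.

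Subunits that pair with each other had unequal log2 ratios. The log2 ratio of day 2 against day 0 was -1.16 for Itga6 and 0.77 for Itgb1, a difference of -1.93, and the difference between Itga3 and Itgb1 was -1.54. The Itga3 value rests on its brightest probe set (-0.77), and its second probe set stood at 0.16. The difference was -0.36 between Itga5 and Itgb1 and 0.29 between Itgav and Itgb1, each no wider than the probe-set SD of the alpha subunit. Itgav and its partner Itgb5 parted by 1.95 (1.06 against -0.89). These are differences between log2 ratios and say nothing of which subunit is more abundant.

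The genes whose 2 steps were most like those of Itga6 were sought among 12304 genes outside the lists that lay above the floor on at least 2 of the 3 arrays, by the distance between log2 ratios. The nearest 5 were the myelin and epithelial membrane protein Pllp, the lysosomal transporter Abcd4, Lmntd2, the mitochondrial acetyl-CoA synthetase Acss1 and the desmosome protein Pkp2, at distances from 0.03 to 0.05. Pkp2 read 777, 879 and 337 on days 0, 1 and 2 and Acss1 417, 480 and 188. The day 2 signal of Pllp (27.5) was under the floor, so its ratio on that day, and with it its distance, was set by the floor. That of Lmntd2 (55.7) was above the floor but under the odorant receptor background. With 3 arrays, many genes fit any such pattern closely.

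The other integrin subunits were mostly dim. Of 18 listed, 16 had a probe set of their own and 11 were above the floor on at least 1 array. On day 2, 3 of these 11 were at least 2-fold lower than on day 0 and 0 higher (10.1% and 11.0% of all genes), with a median log2 ratio of -0.28. Itgb7, a lymphocyte homing subunit, read 321, 40.1 and 67.9 on days 0, 1 and 2, and Itga1, a collagen receptor subunit, read 173 on day 0 and was under the floor on day 1 and day 2, at least 3.20-fold lower. Itgal, the leukocyte subunit, read 134, 102 and 10.2 by its brightest probe set, but its second probe set had a log2 ratio of 1.42. The platelet subunit Itga2b read 331, 176 and 408. A floor at the 60th percentile left 1 of these subunits lower in place of 3 (9.24% of all genes at that floor).

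The matrix ligands, a list of matrix proteins not limited to those that the 9 receptors bind, were compared on the same arrays. Of 17 measured matrix ligands, 7 passed 2-fold upward on day 2 against day 0 and 1 downward (11.0% and 10.1% of all genes). The median log2 ratio of the ligands was 0.73. The laminin chains Lama1 (17.1-fold) and Lamb1 (42.5-fold) and the collagen IV chain Col4a2 (19.1-fold) were the furthest up by their brightest probe sets. Over the 4 probe sets of Lamb1, the log2 ratio ran from 2.26 to 6.44. The laminin chain Lama5 had a log2 ratio of -0.92. Among the laminin receptor subunits, Itga6 stood at -1.16 and Itgb1 at 0.77. The single lower ligand was fibronectin (Fn1, log2 ratio -2.53), whose receptor subunit Itga5 had a ratio of 0.41, about 1 probe-set SD. Fn1 and Lama5 are named after their values were seen.

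Adaptors and signalling proteins that join integrin tails to actin were compared next. On day 1, 7 of 25 measured were at least 2-fold lower than on day 0 (28 listed) and 1 (Parva) higher. Over all genes, 6.58% were lower and 6.00% higher. The median log2 ratio of the adaptors was -0.21. The Parva call was lost, leaving 0 higher on day 1, with a floor at the 25th or 60th percentile, a pseudocount or a 3-fold threshold. It was also lost with _s_at and _x_at probe sets left out. At these settings, 2.54% to 7.81% of all genes were higher. On day 2, 4 were lower and 3 higher (10.1% and 11.0% of all genes), with a median of 0.15. The widest difference was in Parva (alpha-parvin), which read 10.4, 157 and 727 on days 0, 1 and 2, at least 13.5-fold higher on day 2 than on day 0. Zyxin (Zyx), a protein of mature adhesions, read 314, 506 and 1299, and integrin-linked kinase (Ilk), which binds parvins, read 795, 1549 and 2581. In contrast Fermt2 (kindlin-2), an activator of integrins, read 5243, 2399 and 1503, although the log2 ratio ranged over its 3 probe sets, -1.80 at the lowest and -0.05 at the highest. The other lower genes on day 2 were Actn4 (-1.25), Tns3 (-1.03, and -0.42 by its other probe set) and Bcar1 (-1.01, and 0.30 by its other probe set). Ilk, Actn4, Tns3 and Bcar1 are named after their values were seen.

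Proteins that work with dystroglycan were read from 2 further lists. Of 8 measured members of the dystrophin and utrophin complex, 2 were lower on day 1 and 1 on day 2 than on day 0, and 0 were higher on either day, with medians of -0.37 and -0.42 (6.58% and 10.1% of all genes were lower on these days). The sarcoglycan Sgce had a day 2 log2 ratio of 0.81, and -0.20 by its other probe set, and the syntrophin Sntb1 one of 0.27, both named after their values were seen. The syntrophin Sntb2 read 525, 221 and 178 on days 0, 1 and 2, lower on day 2 in all 4 of its probe sets, and utrophin (Utrn) read 2090, 644 and 1066, with day 2 log2 ratios over its 3 probe sets of -0.99 at the lowest and 0.03 at the highest. The sarcoglycan Sgcb read 381, 382 and 201 by its brightest probe set, with a log2 ratio of 0.45 by another. Enzymes that build the sugar chains of dystroglycan, or supply their substrates, were on a list of their own. Of 14 measured, 1 was higher on both days and 0 lower, with medians of 0.18 and 0.30 (6.00% and 11.0% of all genes were higher). That 1 was Gmppb, which makes GDP-mannose and read 806, 1625 and 1930. The dolichol kinase Dolk read 561, 690.1 and 1063, and B3galnt2 484, 396 and 281.

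The lowest day 2 log2 ratio of the 6 surrounding lists was on the list of other matrix receptors and integrin partners. Bcam, the Lutheran receptor for laminins with the alpha-5 chain, read 2195, 586 and 130.1 on days 0, 1 and 2, and was 16.9-fold lower on day 2 than on day 0 by its only probe set. Of 15 measured genes on this list, 5 were past 2-fold upward on day 2 against day 0 and 2 downward (11.0% and 10.1% of all genes). The median log2 ratio of the list was 0.70. The urokinase receptor Plaur, which associates with integrins, read 421, 2306 and 2677. Cd47, a partner of Itgav integrins, read 150, 293 and 616, with log2 ratios from 0.11 to 2.04 over 4 probe sets. The others past 2-fold were Sdc4 (1.99), Cd151 (1.40) and Ddr2 (1.01) above and Ddr1 (-1.49) below, all named after their values were seen. The sign turned with the probe set for Ddr1, which reached 0.52 at the highest of 8, and for Cd151, whose 6 probe sets spanned -0.07 to 2.04, while the other Sdc4 and Ddr2 probe sets stood at 0.54 and 1.46. As means over probe sets 4 genes were higher and 1 lower (8.48% and 7.91% of all genes). With _s_at and _x_at probe sets left out, 5 were higher and 1 lower (10.9% and 10.2%). With _a_at ones left out as well, 2 were higher and 0 lower (10.9% and 10.1%). The _a_at probe sets match transcripts of 1 gene and include the only one for Bcam.

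**Figure D4:**
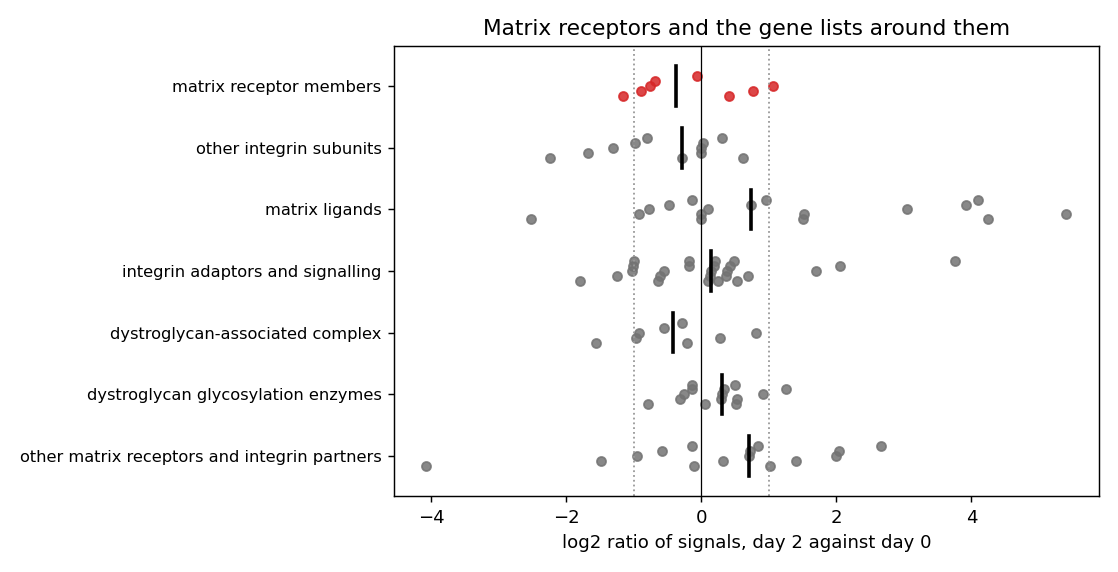
Log2 ratio of day 2 against day 0 for each measured gene of the 9 receptors (red) and of 6 surrounding lists (grey). Points are genes, shifted vertically only to separate them, black bars are list medians and dotted lines mark 2-fold; the matrix ligands reach 5.41 (Lamb1) and Bcam reaches -4.08, while the receptors stay between -1.16 and 1.06.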

How the data were processed

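MAS5 intensity values per probe set were deposited for 3 arrays on a linear scale; the tool is named in the submitters' processing notes, and neither its version nor the scaling target is given there. Per the labels' protocols, RNA was Trizol-extracted and labelled with a one-cycle kit. Of 45101 probe sets, 64 controls were left out; 34945 were annotated to 1 gene, 932 to several and 9160 to none. Symbols were updated by gene identifier through a RefSeq table (GRCm38.p6), which matched 34741. Each array was scaled to a common 2% trimmed mean, floored at 54.0 and put on a log2 scale; the highest probe set stood for a gene. Folds against the floor are written as at least N-fold. Python 3.11.15, numpy, pandas and statsmodels were used. The steps were tested on simulated data.

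The members and lists were chosen with earlier results of these data known. Named genes were the 9 receptors, the 3 widest day 2 ratios of each of 11 lists, and 5 genes nearest to the receptor with the widest ratio; others are marked. No test was possible with 1 array per day, whose number limits the precision. Alternatives changed the floor, scaling, probe set choice and fold threshold.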

Additional observations from a re-analysis of the deposited data

How the results depend on the processing

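No receptor's log2 ratio turned sign under the 9 alternatives that recompute ratios, except for 2 small differences of day 1 against day 0: Itga5 ranged from -0.06 to 0.10 and Itgb5 from -0.19 to 0.42 on the log2 scale. Most alternatives kept the same probe set, and a changed floor leaves the ratios of bright genes as they were. The signs were thus largely fixed in advance. Itga3 on day 2 against day 0 kept its sign, yet its second probe set stood at 0.16. Itga6 on day 2 against day 0 ranged from -1.25 to -1.08 and Itga3 on day 2 against day 1 from -1.76 to -1.16. Of 60 recomputed receptor counts, 54 stayed within 1.5 times the value reported. The reported counts were 0, 1 or 2, and a 0 that stayed 0 is among the 54, so this share says little. With each gene as the mean over its probe sets, 1 receptor (Itga3, 1.55) was higher on day 1 than on day 0 in place of 0, and 0 were higher on day 2 in place of 1, as Itgav stood at 0.80. With all probe sets of the _a_at, _s_at and _x_at kinds left out, 2 receptors were lower on day 2 than on day 0 in place of 1. Over all genes at that setting, 10.1% were lower. Itgb5 (-1.40) joined Itga6. On day 2 against day 1, 3 receptors were lower in place of 2 (3.80% of all genes). This choice also drops _a_at probe sets, which match transcripts of 1 gene. With only _s_at and _x_at probe sets left out, an alternative chosen after seeing the data, each of the receptor counts stayed within 1.5 times. On day 2 against day 0, 1 receptor was lower (10.2% of all genes). With a 3-fold threshold, 0 were higher and 0 lower on day 2 against day 0 and 0 lower on day 2 against day 1. Over all genes these shares were 5.19%, 3.89% and 0.83%. A floor at the 25th percentile gave Itgb3 a log2 ratio of 0.96 on day 1 against day 0, from signals of 17.4 and 50.6 that lie under the odorant receptor background. Of 660 recomputed list counts 579 stayed within 1.5 times, and of 297 list medians 269 moved by less than the overall probe-set SD. Causes of these differences were not tested beyond the change of probe sets or threshold itself. No paired analysis was possible because each day has 1 array. Signal over background limits Itga7 and Itgb3.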
